A study of Danio rerio with 9 samples.

Results

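The 47 genes described here belong to the zebrafish families of enzymes and binding proteins that write, remove or read acetyl groups on histones, with a corepressor scaffold and some deacetylases that act mainly on other proteins or on polyamines. They were taken from the 32520 genes of the deposited table by name, from genes named hdac, sirt or kat with their numbers, ep300, crebbp, ncoa1, ncoa2, ncoa3, ncor, or brd with a number. They comprise 17 acetylases and acetylase coactivators, 19 deacetylases, a corepressor scaffold and 10 bromodomain readers. RNA was sequenced from heads of Tübingen zebrafish embryos at 2 dpf, the long-pec stage, with 3 samples in each of 3 groups and 5 heads pooled for each sample. ZM embryos were derived germ-free and then given filter-sterilized metabolites from adult zebrafish guts, and GF embryos were derived germ-free by the same sterilization, with antibiotic and bleach washes, and given none. CV embryos were raised conventionally and were not put through the sterilization, so the lack of microbes and the sterilization itself cannot be told apart in GF against CV. The comparisons ask whether expression differs without microbes and whether metabolites alone alter it in germ-free embryos.

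Histone acetylases move an acetyl group from acetyl-CoA onto lysines of the histone tails, which loosens chromatin and marks active promoters and enhancers. Deacetylases take it off again, the hdac enzymes with zinc and the sirtuins with NAD, and bromodomain proteins bind the acetylated lysine and bring in the machinery of transcription. In the developing zebrafish nervous system hdac1 is required for neurons to form in the hindbrain and retina. Butyrate, which gut bacteria release, is a known inhibitor of the zinc-dependent deacetylases.

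Levels are FPKM, the fragments of a gene scaled to the length of its transcript and to the fragments mapped in the library, from which the reads per gene could not be recovered. Differences are log2 fold changes on log2(FPKM + 1), on which the change of weakly expressed genes comes out too small, and were fitted with limma over the 15904 genes whose mean FPKM in the 9 samples was 1 or more. Adjusted p-values are Benjamini-Hochberg values over those genes. The labels do not say whether samples came from separate clutches, so the p-values measure the spread between these samples. Over all genes tested, the median SD of log2(FPKM + 1) within a group was 0.187 in ZM, 0.178 in GF and 0.270 in CV, and for 67.4% of the genes CV 2 lay nearer to the GF mean than to the mean of CV 1 and CV 3. The sum of FPKM per sample ranged over 676251 to 705494 in ZM, 666444 to 704307 in GF and 587431 to 657383 in CV. Head genes were present in all groups: the 14 head neural markers summed to 181 to 219 FPKM in ZM, 205 to 254 FPKM in GF and 219 to 315 FPKM in CV, against 41.5 to 55.9, 41.4 to 68.8 and 46.1 to 62.2 FPKM for the 21 trunk hox genes.

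Acetylases of the p300 and CBP type, the MYST genes kat6a and kat6b, kat2a and kat14 were lower in GF than in CV heads. So were the coactivators ncoa2 and ncoa3, the corepressor scaffold ncor1 and the BET reader brd3b, all at an adjusted p under 0.1 from limma. None of the 15 deacetylases tested passed the same limit, which 11.6% of all genes passed as lower in GF. Of the 40 members tested, 12 (30.0%) were lower at an adjusted p under 0.1 from limma and 0 were higher, against 11.6% of all genes tested that were lower and 0.780% that were higher. The 12 were ncor1, brd3b and 10 acetylases and acetylase coactivators, with adjusted p between 0.0531 and 0.0859 from limma. Of these, 7 had a mean under 1 FPKM in GF and reached the level needed for testing through the other groups. The share of 30.0% is thus in part set by the filter. The coactivators, with ncoa2 and ncoa3 among the 12, are counted with the acetylases throughout. At an adjusted p under 0.05 from limma, 0 members were lower and 0 higher, where 0.00629% of all genes were lower and 0% higher. The study used the same number as its limit, but with DESeq2 on counts, and reported far more genes as lower in GF. The counts at this limit are therefore not comparable with those of the study. With an unadjusted p below 0.05 there were 16 lower members (40.0% of the 40) and 0 higher members, against 18.0% and 4.70% of all genes. In a bulk sample, fewer cells that express a gene and less of its RNA per cell cannot be told apart.

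The count of 12 depended on single samples. It became 0 without CV 1, CV 3, GF 1, GF 2 or GF 3, 15 without CV 2, and 11 when any 1 of the ZM samples was left out. The share of all genes lower in GF moved with it, to between 0% and 0.00629%, to 17.0%, and to between 8.31% and 10.2%. The count was also 0 when all genes above 0 in any sample were tested (0% of all genes), and 0 when only the GF and CV samples entered the model (0.00629% of all genes). All 12 genes kept a lower mean in GF and an unadjusted p under 0.05 each time a sample was left out.

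Of the 47 members, 40 reached a mean FPKM of 1 and were tested. Of these, 7 had a mean FPKM under 1 in GF, so that they reached the limit through the other groups, and all 7 are among the 12. In ep300a, crebbpa and crebbpb the mean in ZM was also under 1 (0.915, 0.955 and 0.855 FPKM), so that CV alone carried them over it. Over all 47 members at any level, the mean of log2(FPKM + 1) was lower in GF for 29 and higher for 18, with a median difference of -0.24, whereas it was lower for 51.9% of all 28746 genes above 0 in any sample, with a median of -0.00. By class the mean was lower in GF for 13 of 17 acetylases, 7 of 10 readers and 8 of 19 deacetylases, with median differences of -0.74, -0.36 and 0.10. Among the members tested, where 22 of 40 had a lower mean in GF against 48.1% of all genes, the median log2 fold change was -0.77 for 15 acetylases, -0.24 for 9 readers (-0.49 without CV 2) and 0.17 for 15 deacetylases, against 0.02 for all genes. The acetylase median includes genes that passed the filter through CV. Among the acetylases with a mean of 5 FPKM or more, kat14 and ncoa3 stood at -0.77 and -0.74, and kat5a, kat5b, kat7 and kat8 lay between 0.07 and 0.22. The difference between these classes was not tested.

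**Figure D1:**
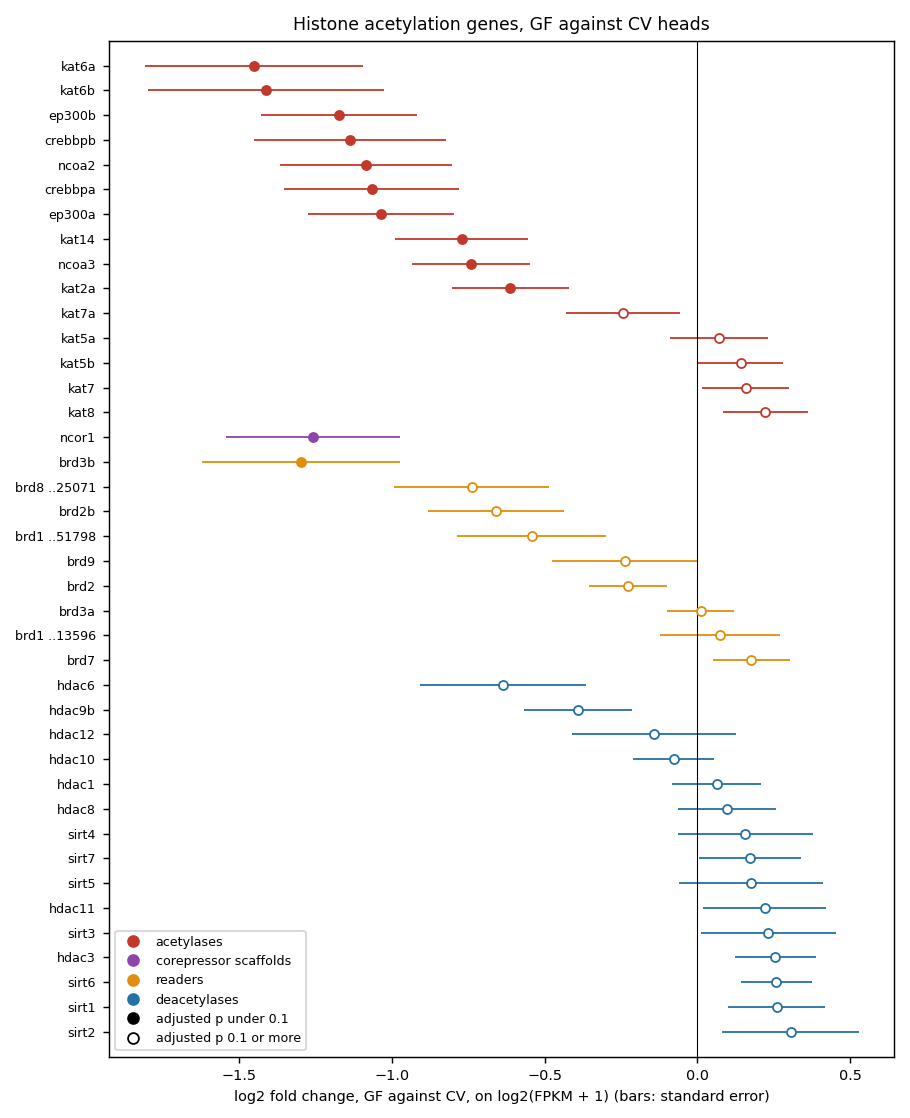
Log2 fold change of GF against CV for the 40 tested members on log2(FPKM + 1), grouped by class, with bars for the standard error of limma and filled points for an adjusted p under 0.1. The 12 filled points lie between -1.45 and -0.61, and the 15 deacetylases lie between -0.64 and 0.30 with no filled point.

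The p300 and CBP proteins are large coactivators that acetylate histones at enhancers, and zebrafish carry a pair of genes for each. The gene ep300a (ENSDARG00000100666) had 0.955, 1.01 and 0.783 FPKM in ZM heads, 0.672, 0.566 and 0.503 FPKM in GF heads, and 1.99, 1.37 and 3.79 FPKM in CV heads. Its pair ep300b (ENSDARG00000061108) had 0.984, 1.83 and 0.923 FPKM in ZM, 0.835, 0.744 and 0.691 FPKM in GF, and 2.92, 1.82 and 4.60 FPKM in CV. In both genes no GF sample reached the lowest CV sample, and CV 3 was the highest of the 9 samples. The log2 fold change of GF against CV was -1.04 for ep300a (standard error 0.24, adjusted p = 0.0531 from limma) and -1.17 for ep300b (standard error 0.26, adjusted p = 0.0531 from limma). For crebbpa (ENSDARG00000104609) the FPKM was 0.703, 1.36 and 0.800 in ZM, 0.636, 0.512 and 0.711 in GF, and 2.41, 1.18 and 4.21 in CV. For crebbpb (ENSDARG00000112452) it was 0.705, 1.31 and 0.545 in ZM, 0.490, 0.399 and 0.598 in GF, and 2.29, 1.02 and 4.33 in CV. GF and CV did not overlap in either gene, and ZM 2 lay above CV 2. Their log2 fold changes of GF against CV were -1.07 (standard error 0.29, adjusted p = 0.0581 from limma) and -1.14 (standard error 0.31, adjusted p = 0.0618 from limma). Summed over the 4 genes, the FPKM was 3.35, 5.51 and 3.05 in ZM, 2.63, 2.22 and 2.50 in GF, and 9.61, 5.39 and 16.9 in CV, so that the range within CV was wider than the gap between GF and CV 2.

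The MYST acetylases did not move together. In kat6a (ENSDARG00000018907), known in zebrafish for keeping hox genes active in the pharyngeal arches, the FPKM was 1.31, 1.90 and 0.889 in ZM, 0.812, 0.667 and 0.606 in GF, and 2.98, 1.82 and 7.84 in CV. Its paralog kat6b (ENSDARG00000055429) had 1.47, 2.001 and 0.383 FPKM in ZM, 0.788, 0.611 and 0.677 FPKM in GF, and 2.61, 1.99 and 7.41 FPKM in CV. In both genes every GF sample was below every CV sample, and ZM 3 of kat6b lay below all GF samples. They had the largest log2 fold changes of GF against CV of the 40 tested members, -1.45 for kat6a (standard error 0.36, adjusted p = 0.0542 from limma) and -1.41 for kat6b (standard error 0.39, adjusted p = 0.0607 from limma).

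Of the MYST genes, kat5a, kat5b, kat7, kat7a and kat8 did not pass. In kat5a (ENSDARG00000004587), a catalytic subunit of the TIP60 complex, the FPKM was 17.1, 15.1 and 21.4 in ZM, 24.1, 19.7 and 18.9 in GF, and 18.8, 18.9 and 21.7 in CV. Its pair kat5b (ENSDARG00000045951) had 26.3, 23.3 and 25.4 FPKM in ZM, 31.3, 25.8 and 26.5 FPKM in GF, and 21.7, 28.2 and 25.6 FPKM in CV. The groups overlapped in both genes, and their log2 fold changes of GF against CV were 0.07 (95% interval -0.29 to 0.43) and 0.14 (95% interval -0.17 to 0.45). The sign of kat5a turned with an equal sum of FPKM per sample. In kat7 (ENSDARG00000031770), the HBO1 acetylase, the FPKM was 40.6, 35.8 and 33.9 in ZM, 40.7, 31.2 and 39.3 in GF, and 29.8, 35.8 and 33.4 in CV. Its paralog kat7a (ENSDARG00000070371) was expressed far lower, at 1.92, 2.42 and 3.16 FPKM in ZM, 2.36, 1.95 and 2.22 FPKM in GF, and 2.60, 2.39 and 3.33 FPKM in CV. GF and CV overlapped in kat7 and did not overlap in kat7a, where the log2 fold change was -0.24 (adjusted p = 0.483 from limma). In kat8 (ENSDARG00000027187), the acetylase of the MSL and NSL complexes, the FPKM was 44.4, 39.9 and 33.9 in ZM, 37.8, 35.1 and 33.1 in GF, and 28.6, 34.0 and 28.0 in CV. Its log2 fold change of GF against CV was 0.22 with an adjusted p of 0.387 from limma, and GF 3 lay below CV 2.

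The p160 coactivators bind nuclear receptors and bring p300 and CBP to them. In ncoa2 (ENSDARG00000017929) the FPKM was 1.84, 2.70 and 1.90 in ZM, 1.89, 1.51 and 1.73 in GF, and 5.17, 2.60 and 7.48 in CV. In ncoa3 (ENSDARG00000077404) it was 3.65, 4.08 and 3.92 in ZM, 4.59, 3.83 and 3.35 in GF, and 7.23, 5.50 and 9.24 in CV. In both genes every GF sample was below every CV sample. The log2 fold changes of GF against CV were -1.08 (standard error 0.28, adjusted p = 0.0562 from limma) and -0.74 (standard error 0.19, adjusted p = 0.0562 from limma). The GCN5 acetylase kat2a (ENSDARG00000104734) is the catalytic subunit of the SAGA complex and, with kat14, of the ATAC complex. Its FPKM was 3.40, 3.51 and 3.23 in ZM, 3.16, 2.99 and 2.02 in GF, and 3.83, 4.42 and 5.85 in CV. For kat14 (ENSDARG00000041708) it was 4.57, 5.43 and 5.26 in ZM, 5.25, 4.52 and 4.03 in GF, and 8.82, 5.92 and 11.7 in CV. All samples of ZM and of GF lay below all samples of CV in both genes, and the log2 fold changes of GF against CV were -0.61 (standard error 0.19, adjusted p = 0.0859 from limma) for kat2a and -0.77 (standard error 0.22, adjusted p = 0.0662 from limma) for kat14. When any 1 of the ZM samples was left out, kat2a no longer passed an adjusted p of 0.1.

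The NCoR scaffold ncor1 carries hdac3 to repressed genes and is needed for its activity, and it was lower in GF together with the acetylases. Its FPKM (ENSDARG00000035285) was 1.35, 2.09 and 1.12 in ZM, 1.05, 0.843 and 1.005 in GF, and 3.55, 2.12 and 6.28 in CV. Every ZM and every GF sample was below every CV sample. Against CV its log2 fold change in GF came to -1.26, with a standard error of 0.28 and a limma adjusted p of 0.0531. Its partner hdac3 (ENSDARG00000037514) had 38.8, 36.4 and 43.6 FPKM in ZM, 41.5, 37.6 and 42.8 FPKM in GF, and 30.6, 38.7 and 32.6 FPKM in CV. Here CV 2 overlapped with GF and ZM, and the log2 fold change of 0.26 had a 95% interval of -0.04 to 0.55.

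**Figure D2:**
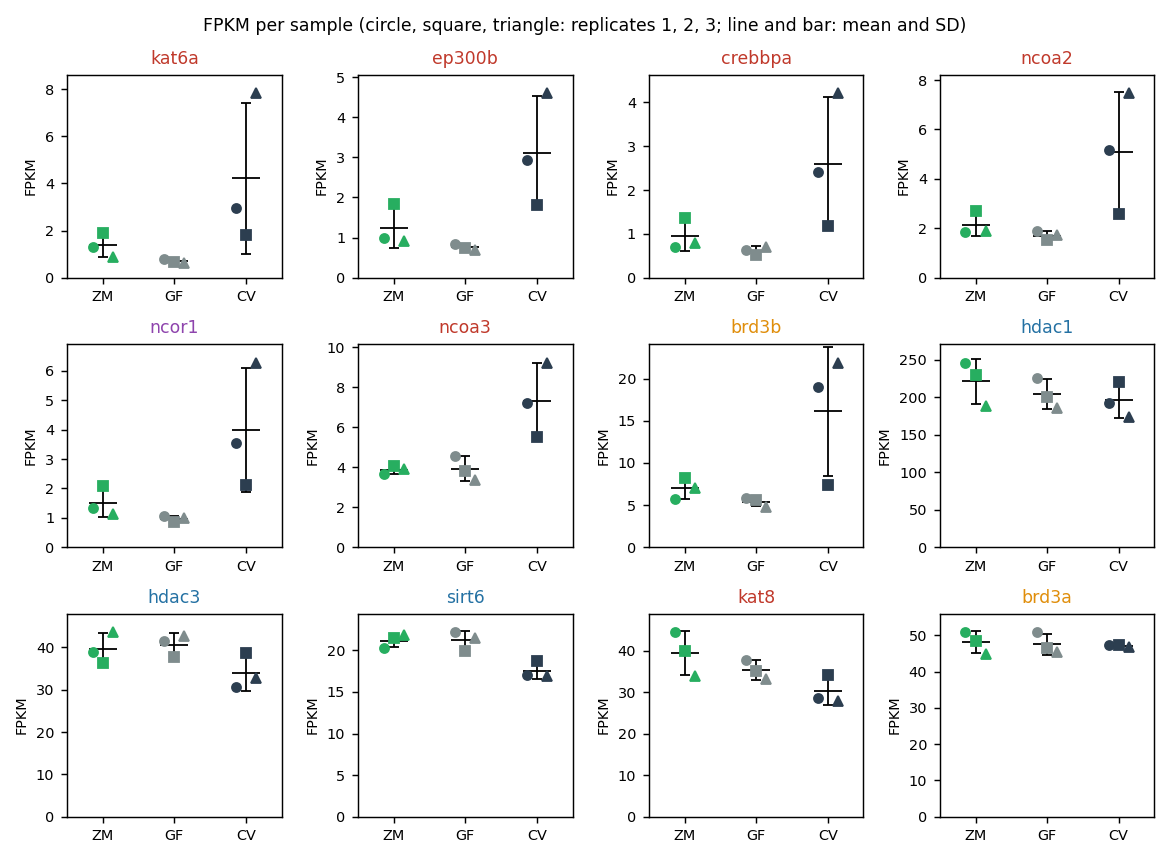
FPKM of 12 members in each sample, with ZM left, GF in the middle and CV right, symbols for the replicates, and a line and bar for the mean and SD of 3 samples. In kat6a, ep300b, crebbpa, ncoa2, ncor1, ncoa3 and brd3b the GF samples lie below all CV samples and CV 3 is highest, while hdac1, hdac3, kat8 and brd3a overlap between GF and CV.

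Among the readers, BET proteins bind acetylated histones through paired bromodomains. In brd3b (ENSDARG00000100129) the FPKM was 5.76, 8.26 and 7.06 in ZM, 5.83, 5.55 and 4.81 in GF, and 19.0, 7.41 and 21.9 in CV. GF did not overlap with CV, and CV 2 lay well below CV 1 and CV 3. Its log2 fold change came to -1.30 in GF against CV, with a standard error of 0.32 and a limma adjusted p of 0.0546. The paralog brd3a (ENSDARG00000006527) had 50.9, 48.6 and 44.9 FPKM in ZM, 50.9, 46.5 and 45.4 FPKM in GF, and 47.5, 47.3 and 46.8 FPKM in CV. It had the log2 fold change nearest to 0 of all tested members, 0.01 with a 95% interval of -0.23 to 0.25. In brd2 (ENSDARG00000022280) the FPKM was 37.5, 34.4 and 36.2 in ZM, 38.4, 31.0 and 30.5 in GF, and 41.8, 36.4 and 38.7 in CV, and the log2 fold change of -0.23 had a 95% interval of -0.51 to 0.06. In brd2b (ENSDARG00000046087), the first gene outside the limit, it was 1.11, 1.21 and 0.903 in ZM, 1.45, 1.29 and 0.588 in GF, and 2.56, 1.56 and 2.86 in CV. GF and CV did not overlap in brd2b, and its log2 fold change was -0.66 (adjusted p = 0.107 from limma), while kat2a was the last gene inside the limit.

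The remaining readers are subunits of acetylase or remodelling complexes. The brd8 gene ENSDARG00000025071, of the TIP60 complex, had 17.5, 21.1 and 22.1 FPKM in ZM, 24.9, 15.2 and 18.8 FPKM in GF, and 33.3, 22.6 and 46.8 FPKM in CV. GF 1 lay above CV 2, and the log2 fold change of -0.74 had an adjusted p of 0.113 from limma. The name brd1, a scaffold of acetylase complexes with kat7, belongs to a pair of genes. The gene ENSDARG00000051798 had 6.36, 4.74 and 8.55 FPKM in ZM, 7.10, 6.37 and 6.72 FPKM in GF, and 8.82, 8.12 and 14.9 FPKM in CV, with GF below CV in all samples and a log2 fold change of -0.54 (adjusted p = 0.220 from limma). Its namesake ENSDARG00000013596 had 8.51, 5.81 and 8.37 FPKM in ZM, 10.4, 7.88 and 8.58 FPKM in GF, and 6.69, 8.82 and 10.0 FPKM in CV, where the groups overlapped and the log2 fold change of 0.07 had a 95% interval of -0.37 to 0.51. The most abundant reader, brd7 (ENSDARG00000008380), a subunit of the PBAF remodelling complex, had 85.4, 78.0 and 86.2 FPKM in ZM, 94.5, 87.8 and 84.1 FPKM in GF, and 87.9, 80.7 and 67.8 FPKM in CV. In brd9 (ENSDARG00000017143), of the non-canonical BAF complex, the FPKM was 16.0, 15.6 and 20.5 in ZM, 20.7, 20.5 and 13.9 in GF, and 27.8, 14.8 and 24.1 in CV. GF and CV overlapped in brd7 and brd9, and their log2 fold changes of GF against CV were 0.18 (95% interval -0.10 to 0.46) and -0.24 (95% interval -0.77 to 0.29).

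None of the 15 deacetylases tested passed an adjusted p under 0.1 from limma in either direction, against 11.6% of all genes lower in GF and 0.780% higher. An unadjusted p under 0.05 was found for 1, which was lower in GF, against 18.0% of all genes lower and 4.70% higher. Only 1 of the 5 class IIa genes was expressed enough to be tested. At any level the mean was lower in GF for 5 of 5 class IIa genes (median -0.39) and 3 of 3 of class IIb (median -0.14), against 51.9% of all genes. It was higher for the 3 genes of class I, for hdac11 and for the 7 sirtuins. The class I enzyme hdac1 (ENSDARG00000015427) was by far the most abundant member, with 246, 229 and 188 FPKM in ZM, 226, 201 and 186 FPKM in GF, and 193, 221 and 174 FPKM in CV. It made up between 22.3% and 32.2% of the summed FPKM of all members in the 9 samples. The groups overlapped, and its log2 fold change of GF against CV was 0.06 with a 95% interval of -0.26 to 0.39. For hdac8 (ENSDARG00000003021), which acts on cohesin, the FPKM was 18.3, 15.5 and 19.8 in ZM, 19.99, 16.3 and 17.1 in GF, and 19.0, 17.3 and 13.7 in CV, with a log2 fold change of 0.10 (95% interval -0.26 to 0.45). The signs of hdac1 and hdac8 turned with an equal sum of FPKM per sample, and that of hdac1 also with quantile normalization. Summed over the 19 deacetylases, the FPKM was 385, 365 and 355 in ZM, 383, 341 and 348 in GF, and 323, 361 and 317 in CV.

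The deacetylase with an unadjusted p under 0.05 was hdac6 (ENSDARG00000008384), a cytoplasmic enzyme that deacetylates tubulin. Its FPKM was 3.14, 3.04 and 3.90 in ZM, 3.67, 3.33 and 2.64 in GF, and 5.20, 3.43 and 9.08 in CV. GF 1 lay above CV 2, and the log2 fold change was -0.64 (standard error 0.27, adjusted p = 0.196 from limma). Without CV 2 it passed, with a log2 fold change of -0.92 and a limma adjusted p of 0.0306, and without CV 3 these were -0.32 and 0.554. The class IIa gene hdac9b (ENSDARG00000056642) had 0.814, 0.845 and 0.833 FPKM in ZM, 1.11, 1.23 and 0.950 FPKM in GF, and 1.53, 1.39 and 2.43 FPKM in CV. Here ZM lay below GF and GF below CV without overlap, and the log2 fold change of GF against CV was -0.39 (adjusted p = 0.224 from limma). In hdac10 (ENSDARG00000086458), which deacetylates polyamines, the FPKM was 12.4, 11.8 and 10.6 in ZM, 10.2, 9.79 and 8.93 in GF, and 10.1, 11.0 and 9.66 in CV. Its log2 fold change of GF against CV was -0.08 with a 95% interval of -0.38 to 0.22, and the sign turned with quantile normalization, as did that of hdac12 at -0.14. The class IV enzyme hdac11 had a log2 fold change of 0.22 with a 95% interval of -0.23 to 0.67.

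All 7 sirtuins had a higher mean in GF than in CV, as did 8248 of the 15904 genes tested. Their log2 fold changes lay between 0.16 for sirt4 and 0.30 for sirt2, with a median of 0.23 against 0.02 for all genes, and none passed. This direction held for the 7 genes under the 3 rescalings tried, but sirt5 stood at -0.03 without GF 3. In sirt2 (ENSDARG00000011488), a cytoplasmic tubulin deacetylase, the FPKM was 14.6, 15.3 and 25.7 in ZM, 19.1, 17.3 and 25.2 in GF, and 14.3, 16.3 and 18.4 in CV. In sirt6 (ENSDARG00000102963), a chromatin deacetylase named after its values were seen, it was 20.3, 21.4 and 21.8 in ZM, 22.2, 19.9 and 21.5 in GF, and 17.1, 18.7 and 16.9 in CV. GF overlapped with CV in sirt2, while sirt6 was the only tested member in which every GF sample exceeded every CV sample, against 9.14% of all genes tested, and had a log2 fold change of 0.26 (adjusted p = 0.223 from limma). Every GF sample was below every CV sample in 16 tested members, against 17.7% of all genes.

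The 7 members below the limit for testing are weakly expressed class IIa deacetylases, a GCN5 acetylase, a p160 coactivator and a reader. The p160 gene ncoa1 (ENSDARG00000018257) had 0.312, 0.388 and 0.226 FPKM in ZM, 0.212, 0.147 and 0.114 FPKM in GF, and 0.363, 0.531 and 1.29 FPKM in CV. The class IIa gene hdac7a (ENSDARG00000105179) had 0.636, 1.201 and 0.556 FPKM in ZM, 0.256, 0.514 and 0.381 FPKM in GF, and 1.39, 0.963 and 2.63 FPKM in CV. In both genes GF lay below ZM and below CV without overlap, with differences of GF against CV of -0.54 for ncoa1 and -0.90 for hdac7a on log2(FPKM + 1) (two-sided exact permutation tests, p = 0.1 each, the smallest p that 3 samples against 3 allow). Among the others, the difference was -0.43 for hdac4 (exact permutation test, p = 0.3), -0.39 for hdac5 (p = 0.2 by the same exact test) and -0.09 for kat2b (p = 0.6 by the same exact test). For hdac7b it was -0.00, with values between 0.0948 and 0.322 FPKM in the 9 samples. The second brd8 gene, ENSDARG00000055999, had 0.219, 0.231 and 0.779 FPKM in ZM, 0.836, 0.584 and 0.520 FPKM in GF, and 1.33, 0.814 and 1.84 FPKM in CV, a difference of -0.48 between GF and CV (exact permutation test, p = 0.2).

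**Figure D3:**
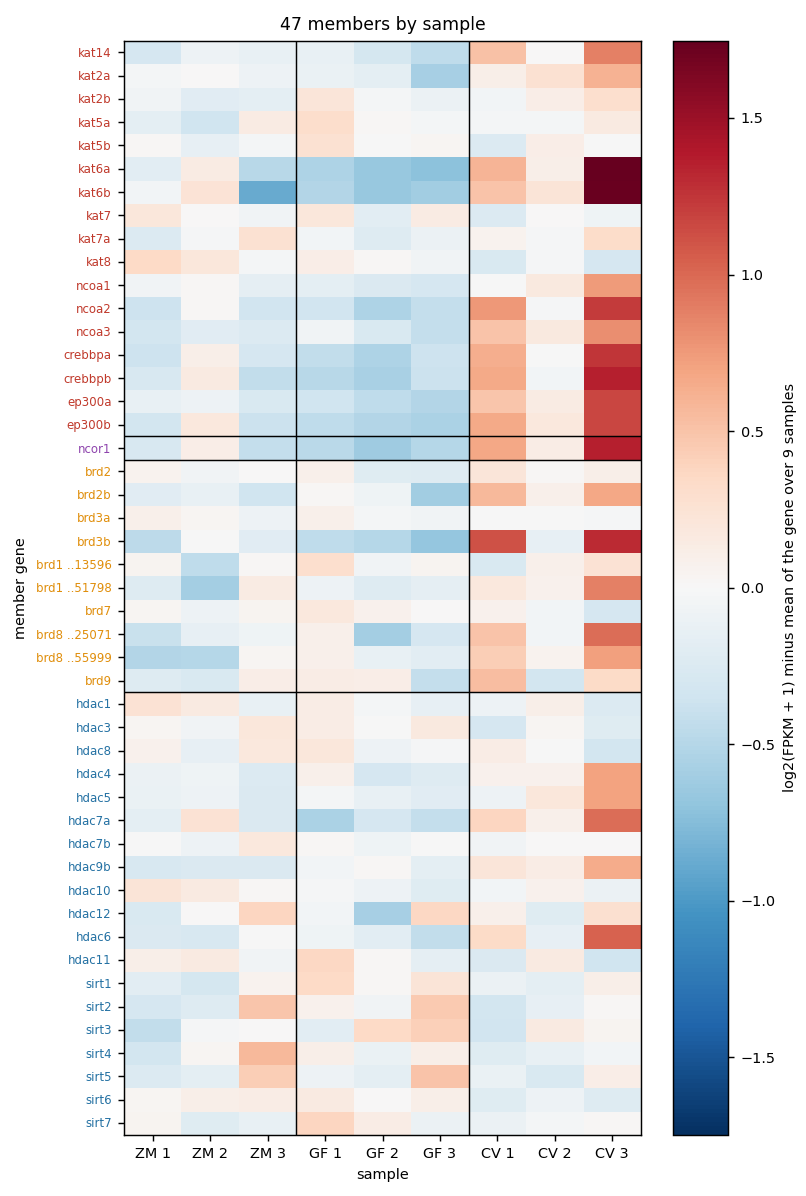
Level of the 47 members in each of the 9 samples (columns, ZM left, GF in the middle, CV right) as log2(FPKM + 1) minus the mean of the gene over the 9 samples, with members grouped by class. Among the CV samples, CV 3 is highest in 12 of 15 tested acetylases, ncor1, 5 of 9 tested readers and 8 of 15 tested deacetylases. CV 2 is lowest in 10 of these acetylases, ncor1, 6 of these readers and 5 of these deacetylases. The deacetylases hdac6 and hdac7a vary widely within CV, while most deacetylases vary little.

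The CV samples were ordered alike in most of the 12 genes, as was the top ZM sample. CV 3 was the highest of all 9 samples in 12 of them and CV 2 the lowest CV sample in 11, the exception being kat2a, while ZM 2 was the highest ZM sample in 12. Over all genes tested, CV 3 was the highest of the CV samples alone in 39.9%, CV 2 the lowest CV sample in 26.1% and ZM 2 the highest ZM sample in 24.6%. The share of all genes with CV 3 the highest of all 9 samples was not taken. The 12 were chosen as lower in GF than in CV, so a CV sample at the top is in part set by that choice. GF 1 was the highest GF sample in 10 and GF 3 in 2, against 59.7% and 25.4% of all genes. The lowest GF sample was GF 2 in 5 and GF 3 in 7, against 39.9% and 45.4% of all genes. CV 2 lay nearer to the GF mean than to the mean of CV 1 and CV 3 in 11 of the 12, against 67.4% of all genes. All ZM samples lay below both CV 1 and CV 3 in all 12. The median SD of log2(FPKM + 1) within a group over the 12 genes was 0.240 in ZM, 0.0929 in GF and 0.619 in CV. For the deacetylases it was 0.167 in ZM, 0.167 in GF and 0.172 in CV. The spread of weakly expressed genes also comes out too small on this scale, and 7 of the 12 had a mean under 1 FPKM in GF. CV varied more than GF in 13 of 15 acetylases and 6 of 15 deacetylases, against 70.6% of all genes. The genes share the same libraries, so their common order counts as a single observation on these samples.

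The genes that were lower in GF were weakly expressed. Their mean FPKM reached at most 5.40 in GF and 16.1 in CV. By mean FPKM over the 9 samples, 9 of 17 members between 1 and 5, 3 of 14 between 5 and 20, and 0 of 9 at 20 or above were lower in GF at an adjusted p under 0.1, against 14.9%, 11.0% and 5.55% of all genes in the same ranges. The 9 in the lowest range include the 7 with a mean under 1 FPKM in GF, which reached the limit for testing through the other groups. The share in that range is thus in part set by the filter. The median log2 fold change in these ranges was -0.66, 0.07 and 0.14 for the members and -0.11, 0.05 and 0.16 for all genes. The deacetylases were spread over the whole range of levels, and those between 1 and 5 FPKM, hdac6, hdac9b, hdac11, hdac12, sirt3 and sirt4, had log2 fold changes between -0.64 and 0.23. The part of expression level in the difference between classes was not tested.

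**Figure D4:**
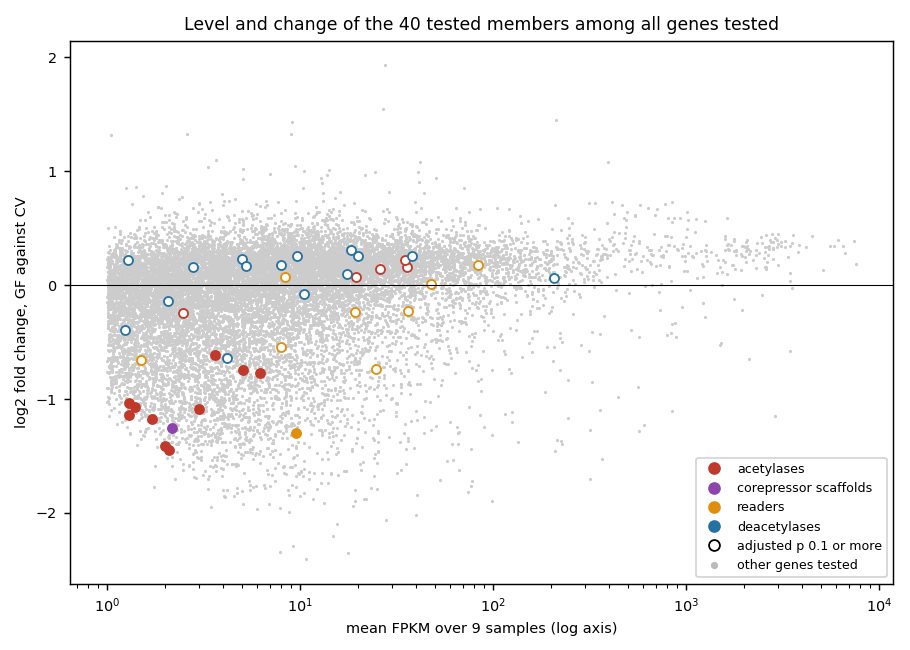
Log2 fold change of GF against CV (vertical axis) against the mean FPKM over the 9 samples (horizontal log axis) for all 15904 genes tested in grey and the 40 tested members in colour, with filled points for an adjusted p under 0.1. The 12 filled points have a mean below 20 FPKM, and the 9 members at 20 FPKM or above lie between -0.23 and 0.26 except for brd8 ENSDARG00000025071 at -0.74.

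Paralog pairs differed in whether their members moved together. The ratio of ep300a to ep300b was 0.970, 0.550 and 0.849 in ZM, 0.805, 0.760 and 0.727 in GF, and 0.681, 0.751 and 0.823 in CV. That of crebbpa to crebbpb lay between 0.973 and 1.47 in all samples, and it was higher in every GF sample than in every CV sample. In the ep300 and crebbp pairs and in kat6a and kat6b both copies were lower in GF at an adjusted p under 0.1. The ratio of brd3a to brd3b was 8.85, 5.88 and 6.36 in ZM, 8.73, 8.39 and 9.44 in GF, and 2.50, 6.38 and 2.13 in CV. It was higher in all GF samples than in all CV samples, since brd3b was lower in GF and brd3a was not called. The ratio of the brd1 genes (ENSDARG00000013596 to ENSDARG00000051798) was 1.34, 1.23 and 0.979 in ZM, 1.46, 1.24 and 1.28 in GF, and 0.758, 1.09 and 0.673 in CV. That of kat7 to kat7a was 21.2, 14.8 and 10.7 in ZM, 17.3, 16.1 and 17.7 in GF, and 11.5, 14.9 and 10.1 in CV, so that in both pairs all GF samples lay above all CV samples. The same held for brd2 to brd2b, at 26.4, 24.0 and 51.8 in GF and 16.3, 23.3 and 13.5 in CV. For the weakly expressed hdac7a and hdac7b the ratio was instead lower in GF, at 1.41, 4.77 and 2.38 against 11.8, 5.69 and 15.1 in CV. These ratios are descriptions, and reads from near-identical copies may have been shared between the genes of a pair.

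**Figure D5:**
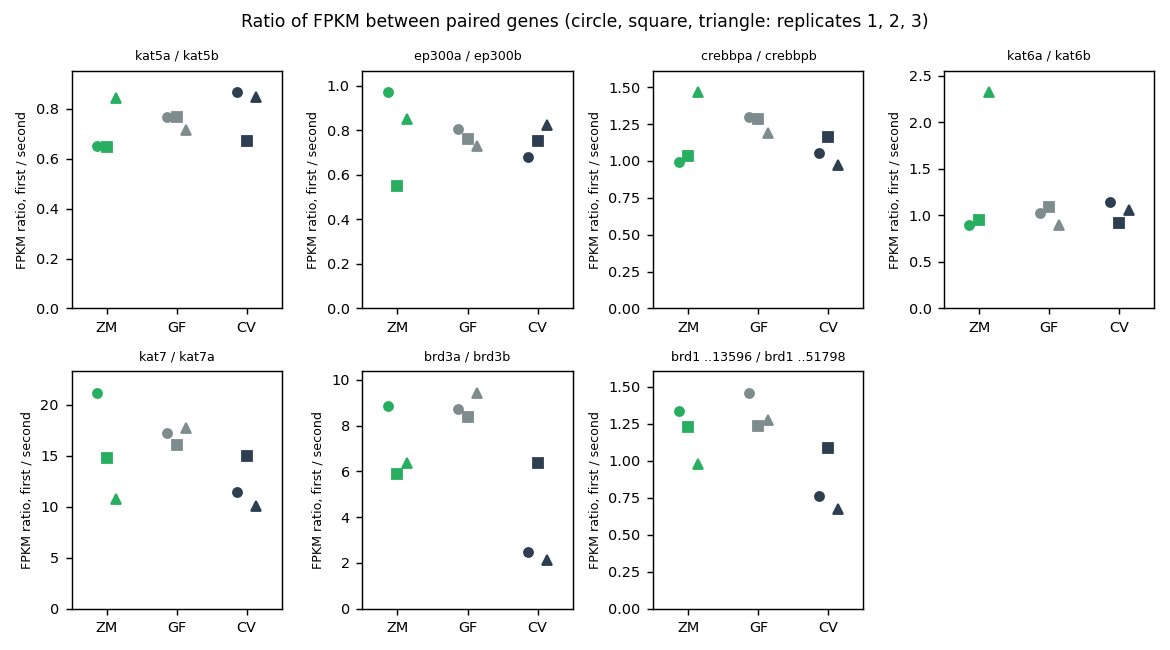
Ratio of the FPKM of paired genes in each sample for 7 pairs, with ZM left, GF in the middle and CV right and symbols for the replicates. The ratio of brd3a to brd3b spans 8.39 to 9.44 in GF and 2.13 to 6.38 in CV, whereas those of kat5a to kat5b and ep300a to ep300b overlap between the groups.

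With metabolites, no member passed a test against untreated germ-free heads. Of the 40 tested members, 0 were higher and 0 lower in ZM heads by limma at an adjusted p under 0.1, against 0.00629% and 0% of all genes. The study used this limit for this comparison with a different test, DESeq2 on counts. Among the members the smallest adjusted p from limma was 0.848. At an unadjusted p under 0.05 likewise 0 were higher and 0 lower, against 2.55% and 3.16% of all genes. The mean was lower in ZM for 18 of the 40 and higher for 22, against 49.2% of all genes lower, with a median log2 fold change of 0.03 against 0.00 for all genes. Every ZM sample was above every GF sample in 6 tested members, ep300a, ep300b, kat2a, kat6a, ncor1 and hdac10, against 10.4% of all genes, and below them in 1, hdac9b, against 6.17%. By class the median was 0.21 for the acetylases, -0.00 for the readers and -0.00 for the deacetylases. Of the 40 tested members, kat6a had the largest log2 fold change of ZM against GF, 0.46, with a 95% interval of -0.33 to 1.26. For ep300b it was 0.33 (95% interval -0.24 to 0.90) and for ncoa3 -0.00 (95% interval -0.43 to 0.42), so that a change of more than a doubling on this scale is within the interval of kat6a.

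Replicates with the same number in ZM and GF deviated together from their group means, and the fit with the replicate number as a block changed no adjusted call in ZM against GF. In that fit sirt1 and sirt3 were lower in ZM at unadjusted p of 0.0418 and 0.0497, and the adjusted p from limma was 0.707 for each, where 3.65% of all genes had an unadjusted p below 0.05 in that direction and 3.41% in the other. With the ZM and GF samples alone and the same block, an alternative chosen after seeing the data, sirt1 and sirt3 were again lower (unadjusted p of 0.0270 and 0.0257 from limma), and kat6a (0.46, unadjusted p of 0.0188) and ep300a (0.28, unadjusted p of 0.0446) were higher, against 7.39% of all genes lower and 9.67% higher. The adjusted p of these 4 lay between 0.237 and 0.284 by limma. The nuclear deacetylase sirt1 (ENSDARG00000068064) had 8.28, 7.57 and 10.0 FPKM in ZM, 12.5, 9.73 and 11.4 FPKM in GF, and 8.86, 8.40 and 10.3 FPKM in CV, and sirt3 (ENSDARG00000035819), a mitochondrial deacetylase, had 3.36, 4.80 and 4.91 FPKM in ZM, 4.20, 6.49 and 6.82 FPKM in GF, and 3.69, 5.55 and 5.11 FPKM in CV. Each ZM sample of both genes lay below the GF sample of the same number. Of the 7 sirtuins, 6 had a lower mean in ZM than in GF, with a median log2 fold change of -0.17. The genes sirt1, sirt3 and hdac3 were named after their values were seen.

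Against conventionally raised heads, limma gave 0 members lower and 0 higher in ZM heads at an adjusted p under 0.05, with 0% of all genes in either direction and a smallest adjusted p of 0.156. At an unadjusted p under 0.05, 15 were lower, against 16.5% of all genes, and 1 was higher, kat8 at 0.37, against 6.94%. Every ZM sample was below every CV sample in 8 tested members, against 13.3% of all genes, and above them in 1, sirt6, against 8.51%. The mean was lower in ZM for 27 of the 40, against 54.9% of all genes, and the median log2 fold change was -0.75 for the acetylases, -0.30 for the readers and 0.10 for the deacetylases, against -0.05 for all genes. Without CV 2, limma gave 14 members lower in ZM heads at an adjusted p under 0.05, where the share of all genes was 12.1%. The comparisons share the GF and CV samples, so their values stand side by side and are not independent. The mean of ZM lay between those of GF and CV in 11 of the 12 genes lower in GF, the exception being ncoa3. The 12 were chosen for a gap between GF and CV, so a ZM mean between them is in part set by that choice. The share of all genes with this order was not taken, so no conclusion on the metabolites is drawn from it.

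Other genes of the acetylation machinery, in lists matched by exact name, were lower in GF in part. Of 35 tested partners of the acetylases, 9 were lower in GF heads at an adjusted p under 0.1 and 0 higher, with a median log2 fold change of 0.05, which turned to -0.09 over 45 partners when names were also matched without their final letter. The largest change was in kansl1a at -1.53 (adjusted p = 0.0531 from limma), a scaffold of the NSL complex of kat8, followed by brpf1 at -1.43 (adjusted p = 0.0557 from limma), the scaffold of kat6a complexes. Of 34 partners of the deacetylases, 7 were lower and 0 higher, with a median of -0.09, or -0.28 over 48 partners by the wider matching. The leading genes were mta2 at -1.63 (adjusted p = 0.0531 from limma), of the NuRD complex, and rcor2 at -1.47 (adjusted p = 0.0531 from limma), of the CoREST complex. Of 25 other acetyl-lysine readers, 12 were lower and 0 higher, with a median of -0.58, led by trim33 at -1.57 (adjusted p = 0.0531 from limma) and trim24 at -1.28 (adjusted p = 0.0531 from limma). Of 18 genes for the supply of acetyl-CoA and NAD, 2 were lower and 0 higher, with a median of 0.04. These were dlat at -1.06 (adjusted p = 0.0531 from limma) and pdhx at -0.87 (adjusted p = 0.0769 from limma), both of the pyruvate dehydrogenase complex. All these shares stand against 11.6% of all genes lower in GF, and none was tested as a list.

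Some markers of cell types differed between the groups as well. They were matched by name or by name without its final letter, an alternative chosen after seeing the data. In GF against CV, 3 of 7 cartilage markers, 4 of 9 early stress genes, 3 of 14 neuronal and 3 of 11 photoreceptor markers, 2 of 14 head neural markers and 1 of 12 proliferation markers were lower in GF at an adjusted p under 0.1 and 0 were higher. Of 11 lens markers 3 were lower and 3 higher, and of the 12 trunk hox genes and the skin, muscle, erythrocyte, and yolk and liver markers tested, 0 were lower and 0 higher at this limit. Over all genes 11.6% were lower and 0.780% higher, and the shares of the proliferation (8.33%) and head neural markers (14.3%) lay near the former. Every GF sample was above every CV sample in 6 of 9 skin, 4 of 14 neuronal and 3 of 14 head neural markers, against 9.14% of all genes. The reverse held in 0, 3 and 2, against 17.7%. The summed level of the cartilage markers was 109 to 228 FPKM in ZM, 161 to 194 FPKM in GF and 199 to 436 FPKM in CV, and that of the neuronal markers 1048 to 1367 FPKM in ZM, 1339 to 1671 FPKM in GF and 1276 to 1410 FPKM in CV. Skin markers summed to 14000 to 15950 FPKM in ZM, 15650 to 19280 FPKM in GF and 13620 to 14330 FPKM in CV. Proliferation markers summed to 1418 to 1910 FPKM in ZM, 1146 to 1259 FPKM in GF and 1055 to 1218 FPKM in CV. Their part in the values of the acetylation genes was not tested.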

How the data were processed

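The authors checked reads with FastQC, mapped them with HISAT2 2.1.0 to GRCz11 and deposited gene levels as FPKM from StringTie 1.3.4d, with no replicates pooled. FPKM is scaled to each library, so a change in total RNA is not seen. The authors' differential test used DESeq2 on HTSeq counts, which are not used here, and no count model was fitted. The study's methods state a sequencing depth for the samples as a range, and depth in each sample is not used here. Reads per gene could not be recovered from FPKM: of 7015 low genes compared between CV 1 and CV 2, 17 shared the commonest ratio of levels, rounded to 3 decimals.

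From the deposited FPKM, log2(FPKM + 1) was fitted without rescaling with limma 3.58.1 in R 4.3.3 (eBayes with trend, 9 samples, no block, two-sided, Benjamini-Hochberg) for the 15904 genes whose mean FPKM was 1 or more. Tables were made with Python 3.11.15. The fit was also run on simulated data with noise drawn independently for each gene. That setting lacks the sample order shared by many genes here, so it does not bear on the calls. Limits were an adjusted p of 0.05 for GF and ZM against CV, 0.1 for ZM against GF, and 0.1 for GF against CV, the last known from earlier results to be where genes pass. The members, lists and rules were chosen with earlier results of these data known.

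Members were matched by name, which gave 49 genes, of which 2 are not reported here and enter no count of members; 29201 of 32520 IDs had a symbol, and 5 members took the letter of their copy from the study's tables. Per-sample values are given for members called, for the 3 largest and 3 smallest changes and the most abundant gene of each class, and for their paralogs; other named members were added after their values were seen. Groups came from the labels. Deviations of replicates 1, 2 and 3 from the group means correlated across genes between ZM and GF at 0.409, 0.466 and 0.616, so a fit with the replicate number as a block was run. Between GF and CV the correlations were -0.06, 0.15 and 0.32, and between ZM and CV 0.06, 0.06 and 0.49. Alternative fits changed the pseudocount (0.1), the filter (none, or a mean of 5), the scaling (3 ways), the samples fitted, the trend or the block. No sequences, positions or protein lengths are given.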

Additional observations from a re-analysis of the deposited data

How the results depend on the processing

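The direction of GF against CV held in all 12 genes under every alternative run, but the count at a limit did not. At an adjusted p under 0.1, the 12 lower members became 0 with all genes above 0 tested (a share of 0% over all of them), 3 at a minimum mean FPKM of 5 (7.68%, and 3 of the 12 were tested), 6 after quantile normalization (5.57%) and 0 with only the 2 groups in the model (0.00629%), and between 0 and 15 when a sample was left out (0% to 17.0%). At 0.05, 0 became 6 with a pseudocount of 0.1 (5.29% of all genes), 10 (8.14%) with only the 2 groups and a replicate block (an alternative chosen after seeing the data), and up to 14, without CV replicate 2 (13.8%), when a sample was left out, and the lowest there was 0. The 0 higher members at 0.1 became 1, hdac3, without CV replicate 2 (range 0 to 1, and 6.03% of all genes). In ZM against CV the 0 lower members at 0.05 were 0 to 14 when a sample was left out, against 0% to 12.1% of all genes. With the replicate block, 12 members were lower at 0.1, against 12.5% of all genes. Of these, 11 were shared with the 12: kat2a no longer passed and brd8 ENSDARG00000025071 did, and no other call changed. Same-numbered replicates of ZM and GF correlated at 0.409 to 0.616. With CV, replicate 3 stood at 0.49 for ZM and 0.32 for GF, and replicates 1 and 2 lay between -0.06 and 0.15.

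The median of the members was -0.18 unscaled and -0.012 after quantile normalization, that of the readers -0.49 (without CV replicate 2) to -0.17 with a sample left out, and that of the deacetylases 0.061 with an equal sum per sample, 0.30 after quantile normalization and 0.076 to 0.20 with a sample left out. The median of all genes was then -0.09 with an equal sum and 0.12 after quantile normalization. The deacetylases lay above the median of all genes by 0.15 unscaled, 0.15 with an equal sum and 0.18 after quantile normalization. The acetylases lay 0.79, 0.80 and 0.75 below it. Their median includes genes that passed the filter through the other groups, and the rescaled fits kept the same genes, so they do not remove that selection. With names matched by stem, an alternative chosen after seeing the data, 14 of 45 acetylase partners, 15 of 48 deacetylase partners, 14 of 29 other readers and 2 of 22 supply genes were lower at 0.1, with medians of -0.09, -0.28, -0.64 and 0.02. Of the 28 other tested members, 8 changed sign in GF against CV under some alternative. In ZM against GF 16 of 40 and in ZM against CV 13 of 40 did. The corrections for protein length were not run. Reads per gene could not be recovered, and 3 samples a group limit the precision. The cause of these changes was not tested.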
